A study of Magallana hongkongensis with 2 samples.

Results

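Transient receptor potential (TRP) channels are membrane proteins that let cations, calcium among them, into the cell when they are opened by temperature, chemicals, touch, osmotic stress or lipid signals. They were examined here in gill of Crassostrea hongkongensis, the Hong Kong oyster, an estuarine bivalve that meets wide swings of temperature. Members were all assembled transcripts (unigenes) whose description contained "transient receptor potential", TRPM, TRPA or TRPV. This gave 34 of the 21226 unigenes listed in either library. By their descriptions 4 belonged to the A subfamily (TRPA), 16 to the M subfamily (TRPM), 6 to the V subfamily (TRPV) and 8 to the C subfamily (TRPC). The last count includes 1 unigene described as Transient receptor potential-gamma protein, a TRPC relative known from flies.

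Both libraries came from wild, adult, diploid oysters of undetermined sex that had been acclimated for 2 weeks. The control-labelled library came from oysters held in seawater at 23 °C. The heat-labelled library came from oysters kept at 37 °C for 1 h and then put back at 23 °C, and pooled gill from 10 of them. The sources used here give neither the number of oysters behind the control nor the delay between shock and sampling.

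In animals generally, each subfamily is known for a different way of opening. TRPA1 answers to reactive chemicals, and in several insects and other invertebrates to warmth. TRPM2 is opened by ADP-ribose and calcium under oxidative stress, and TRPM3 by heat and by a steroid; both roles are known from mammals. TRPV channels include the mammalian heat and capsaicin receptor, whereas TRPV6 is the calcium-selective channel of mammalian epithelia. TRPC channels open downstream of phospholipase C, the enzyme that splits the membrane lipid PIP2. The names used here are those of the best protein match, so a subfamily name gives likeness and not a tested function. The matched protein came from the Pacific oyster (Crassostrea gigas) for 26 members, from the sea hare Aplysia californica for 4, from Hydra magnipapillata for 2, and from a turtle and a bat for 1 each.

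The libraries held 3925349 uniquely mapped reads under the control label and 4173215 under the heat shock label. There was 1 library per group and therefore no replicate check. All intervals are exact 95% intervals that cover counting error only, and each ratio compares these libraries rather than the conditions. The heat shock response itself had the direction opposite to the labels: heat shock protein 90 (Unigene0015010) was 16.6-fold and Heat shock protein 70 B2 (Unigene0016013) 66.2-fold higher in the control-labelled library. Libraries are therefore called by their labels throughout, and any direction given here rests on those labels. Axonemal dynein, tektin, radial spoke and intraflagellar transport unigenes, which mark the ciliated gill epithelium, held 1.11% of the reads in the control-labelled library and 1.34% in the other.

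Transcripts of the members were rare. The word rule leaves out the TRP relatives polycystin-2 and mucolipin, whose unigenes had 1906 and 2443 reads in all and are described below. The 34 members together had 1739 reads in the control-labelled library and 2219 in the heat-labelled library, or 0.0443% and 0.0532% of the totals. Summed over the members, the ratio of the heat-labelled to the control-labelled library was 1.20 (1.13 to 1.28), beside a ratio of 1.12 for the median unigene with at least 20 reads. Summed gill cilia markers had a ratio of 1.21 (1.19 to 1.22), so the TRP sum and the cilia markers were shifted by similar amounts; the part of cell composition in this was not tested. In bulk gill, fewer cells of a type and less RNA per cell cannot be told apart.

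Of the 34 members, 29 were listed in both libraries, 4 were listed only under the control label and 1 only under the heat shock label. The 19 members with at least 20 reads over both libraries were taken into the comparison. These held 96.9% and 96.6% of the TRP reads. The 15 below that minimum had at most 18 reads and levels of at most 4.96 RPKM (reads per kilobase of length, scaled to the library total). They were also shorter, with a median length of 650 bases against 2028 for the members compared.

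Levels are given per length, in RPKM. Among the members, the most abundant in the control-labelled library was a TRPA1-like unigene (Unigene0006959, 2254 bases), at 29.2 RPKM (25.7 to 32.9). In the heat-labelled library it had 30.9 RPKM (27.5 to 34.7). It lay at percentiles 76.7 and 76.2 of the levels of all unigenes with at least 20 reads, so even this member was only moderately abundant. A TRPM2 unigene (Unigene0016659, 2028 bases) ranked second under the control label, with 18.5 RPKM, and first under the heat shock label, with 36.3. Below these, the order of levels was a graded one: of 33 neighbouring pairs in the order, 1 pair in each library had intervals that did not overlap. In both libraries that pair was Unigene0006959 and the member ranked next below it.

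**Figure D1:**
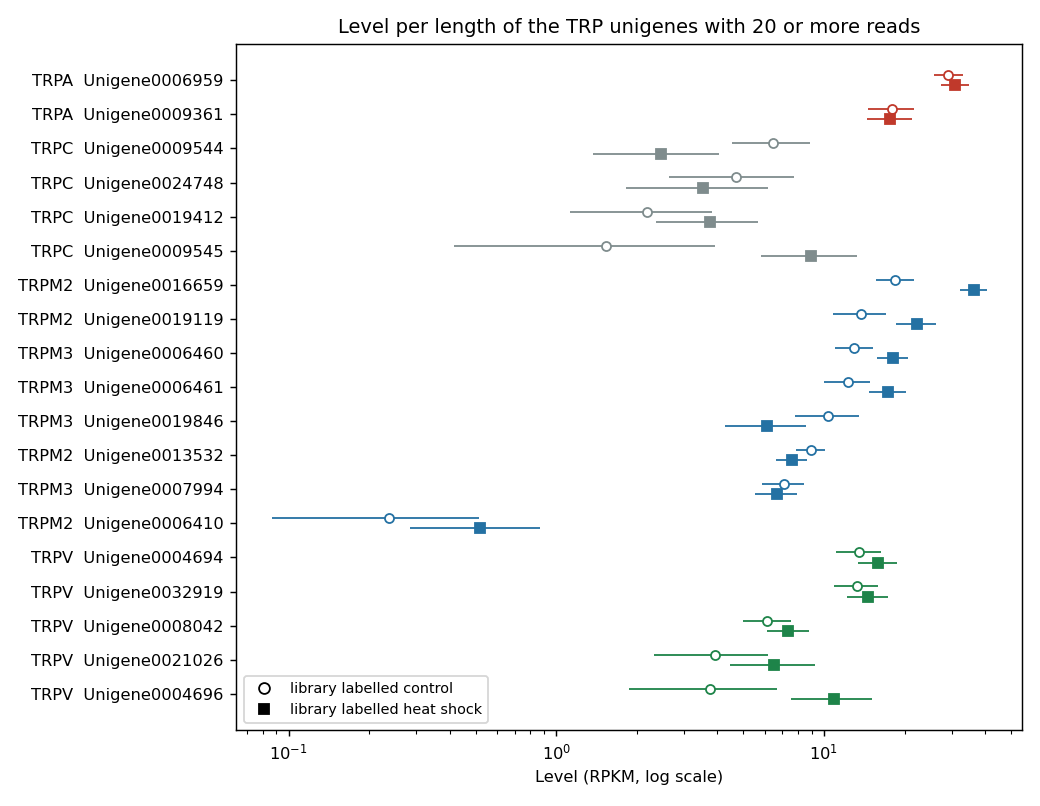
Levels of the 19 TRP unigenes with 20 or more reads, in RPKM on a log scale. Open circles are the control-labelled library and filled squares the heat-labelled library, 1 library each; bars are exact Poisson 95% intervals for counting error. The TRPA unigene Unigene0006959 (29.2 and 30.9 RPKM) and the TRPM2 unigene Unigene0016659 (18.5 and 36.3 RPKM) lead, and Unigene0006410 is lowest.

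The calling rule asked for at least 20 reads, giving a ratio of at least 2 either way and an interval that excluded 1. Of the 19 members compared, 2 were called higher and 1 lower in the heat-labelled library. Over all 17364 unigenes with that many reads, 7.22% were called, 3.97% higher and 3.25% lower. All 3 called members had fewer than 100 reads, a range in which 10.9% of all unigenes were called. None of the 11 members with at least 100 reads was called, against 4.84% of all such unigenes. The median log2 ratio of the 19 members was 0.26, next to 0.17 for all unigenes compared. With 1 library per group, no test of these shares was made.

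**Figure D2:**
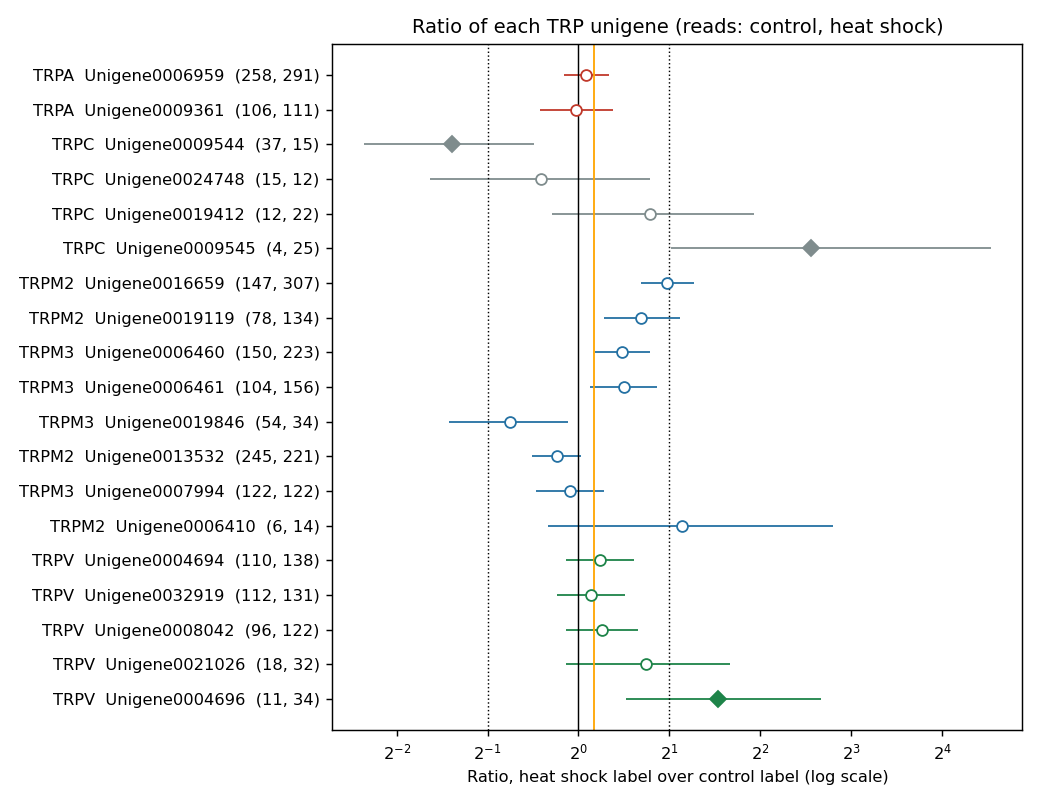
Ratio between the libraries for the same 19 unigenes, heat shock label over control label, on a log scale with exact 95% intervals; reads under the control and heat shock labels stand in brackets. Filled diamonds are the 3 called members, dotted lines mark 2-fold, and the orange line marks the median of all unigenes compared, 1.12. Both TRPA unigenes sit close to 1, while the TRPC unigenes spread to either side.

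The TRPA unigenes, matched to the chemical and warmth sensor TRPA1, were nearly level between the libraries. Unigene0006959 had 258 reads under the control label and 291 under the heat shock label, a ratio of 1.06 (0.894 to 1.26). Unigene0009361 (1507 bases) had 106 and 111 reads, giving a ratio of 0.985 (0.748 to 1.30). For both, the interval excludes a 2-fold difference in either direction. The ratio of the former turned to the other side of 1 with TMM scaling, which lowers every ratio by 0.16 on the log2 scale. The 2 remaining TRPA unigenes, matched to Hydra, had 3 to 9 reads in each library and could not be read.

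TRPM was the largest subfamily, with 9 unigenes described as TRPM2 and 7 as TRPM3. The TRPM2 unigene Unigene0016659 had 147 reads in the control-labelled library and 307 in the heat-labelled library, a ratio of 1.96 (1.61 to 2.41). That places it just under the 2-fold rule, with the interval clear of 1. It was also the only TRP member assigned to purine metabolism in the deposited pathway annotation. A second TRPM2 unigene, Unigene0019119 (1448 bases), had 78 and 134 reads and a ratio of 1.62 (1.21 to 2.165). The longest member, the TRPM2 unigene Unigene0013532 (6998 bases), was named after its values were seen. It had 245 and 221 reads, giving a ratio of 0.848 (0.704 to 1.02). Transcripts sharing the TRPM2 name had unequal ratios: the ratio of Unigene0016659 was 2.32 times that of Unigene0013532. Its 95% interval was 1.76 to 3.05, and 1.57 to 3.43 when widened for the 10 pairs compared within TRP types, which were chosen after values were seen. Unigene0019119 also stood above Unigene0013532, by 1.90 times (widened interval 1.17 to 3.13).

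A further TRPM2 unigene, Unigene0024541, had 0 reads under the control label and 10 under the heat shock label. With the count of 0 set to the floor of 3 reads, the ratio was 3.14, which leaves out counting error in the 10 reads and is no lower limit. The exact interval of the ratio, which also covers counting error in the 10 reads, began at 2.11, and its 10 reads kept it out of the comparison. Unigene0006410, also TRPM2, showed how thin some members are: its 6465 bases carried 6 and 14 reads, giving a ratio of 2.19 whose interval ran from 0.792 to 6.97.

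TRPM3 unigenes likewise lay on both sides of 1. Unigene0006460 (2952 bases) had 150 and 223 reads, 1.40-fold higher in the heat-labelled library (1.13 to 1.73). Its neighbour in the ID order, Unigene0006461 (2159 bases), had 104 and 156 reads, giving a ratio of 1.41 (1.09 to 1.83). Whether they are pieces of 1 gene was not tested. Unigene0019846 (1326 bases), named after its values were seen, had 54 and 34 reads and a ratio of 0.592 (0.374 to 0.926). With scaling to library totals, it was the sole TRPM unigene compared whose interval lay below 1. TMM scaling lowers every ratio and takes the interval of the TRPM2 unigene Unigene0013532 below 1 as well. Unigene0007994, also TRPM3 and named after its values were seen, had 122 reads in each library. For none of the 3 pairs of TRPM3 unigenes with at least 100 reads did the interval widened for the 10 pairs exclude 1.

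All 6 TRPV unigenes were described as TRPV6, the epithelial calcium channel of mammals. The 3 with at least 100 reads were close together. Unigene0004694 (2076 bases) had 110 and 138 reads, giving a ratio of 1.18 (0.912 to 1.53). Unigene0032919 (2148 bases) had 112 and 131 reads, giving a ratio of 1.10 (0.848 to 1.43), and Unigene0008042 (3978 bases) had 96 and 122, a ratio of 1.20 (0.907 to 1.58). These intervals all include 1 and the 1.12 of the median unigene. The other TRPV unigenes were less abundant. The called one, Unigene0004696 (750 bases), had 11 reads in the control-labelled library and 34 in the heat-labelled library, a ratio of 2.91 (1.44 to 6.36). Unigene0021026 (1174 bases) had 18 and 32 reads, giving a ratio of 1.67 (0.911 to 3.16). Unigene0008041, below the minimum, had 1 and 8 reads, giving a ratio of 7.52 with an interval of 1.01 to 334.

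The TRPC subfamily was the least abundant, with 82 and 94 reads over 8 unigenes, and it held 2 of the 3 calls. All 4 TRPC unigenes compared had 20 to 99 reads. In that range 10.9% of all unigenes were called either way, against 4.84% at 100 or more reads. Whether low counts account for the TRPC calls was not tested. Both TRPC calls were in TRPC6, a channel that diacylglycerol opens in mammals, and they pointed in opposite directions. Unigene0009544 (1466 bases) had 37 reads in the control-labelled library and 15 in the other, 2.62-fold higher in the former (1.405 to 5.14). Unigene0009545 (667 bases) had 4 and 25 reads, 5.88-fold higher in the heat-labelled library (2.03 to 23.2). Set against each other, their ratios differed by a factor of 15.4 (4.16 to 68.7), a comparison chosen after their values were seen. Their IDs follow each other and share 1 description with another short unigene, Unigene0009546, which had 2 and 0 reads. Summed, the 3 had 43 and 40 reads, giving a ratio of 0.875 (0.554 to 1.38).

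Whether these TRPC6 unigenes are pieces of 1 gene, transcript forms or separate genes was not tested. Members with the same description and at most 1 ID number between them were also summed, an alternative chosen with the values known. After summing, 0 TRP entries were called higher and 0 lower. This sum also absorbed the called TRPV6 unigene: Unigene0004694 and Unigene0004696 together had 121 and 172 reads, giving a ratio of 1.34 (1.05 to 1.70). The remaining TRPC unigenes compared were Unigene0024748 (TRPC6, 15 and 12 reads, ratio 0.752, 0.322 to 1.72) and Unigene0019412, matched to a TRPC2-like channel. The latter had 12 and 22 reads, giving a ratio of 1.72 (0.817 to 3.82). The TRP-gamma unigene, Unigene0021840, assigned to fly phototransduction in the deposited annotation, had 7 and 9 reads.

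Summed by subfamily and scaled to the library totals, TRPM and TRPV were higher in the heat-labelled library and TRPA was level. TRPM had 933 and 1251 reads, giving a ratio of 1.26 (1.16 to 1.37), and TRPV 348 and 465, a ratio of 1.26 (1.09 to 1.45). TRPA had 376 and 409 reads, giving a ratio of 1.02 (0.887 to 1.18), and TRPC had a ratio of 1.08 (0.793 to 1.47). Read against the 1.12 of the median unigene, TRPM was the only one of these subfamily sums whose interval lay above it. With TMM scaling the sums became 1.13 for TRPM (1.03 to 1.23), 1.12 for TRPV (0.974 to 1.29), 0.962 for TRPC and 0.913 for TRPA. The side of 1 on which TRPA and TRPC lay thus depended on the scaling, and the TRPV interval then included 1. Leaving out Unigene0009544 moved the TRPC ratio from 1.08 to 1.65.

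Differences between subfamilies do not depend on the scaling. The TRPM ratio was 1.23 times the TRPA ratio (1.04 to 1.46), but its interval widened for the 6 subfamily pairs ran from 0.985 to 1.54 and included 1. TRPV over TRPA was likewise 1.23 (widened interval 0.937 to 1.61). TRPV over TRPM was 0.997 (0.844 to 1.18). With the member holding the most reads of each subfamily left out, TRPM over TRPA became 1.497 and passed the widened interval. For TRPM that member was Unigene0013532, whose own ratio was 0.848. It was not Unigene0016659, the TRPM unigene with the highest RPKM, and leaving out the latter was not tested. With TRPM2 and TRPM3 taken apart, a split chosen once the values were known, TRPM2 over TRPA was 1.32 (widened interval 1.03 to 1.68) and TRPM3 over TRPA 1.14 (0.879 to 1.47), so the former passed and the latter did not. The difference between TRPM2 and TRPM3 was 1.16 times (0.970 to 1.37), an interval that includes 1. The TRPM2 unigenes had ratios on both sides of 1, and each sum weights its unigenes by their reads.

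**Figure D3:**
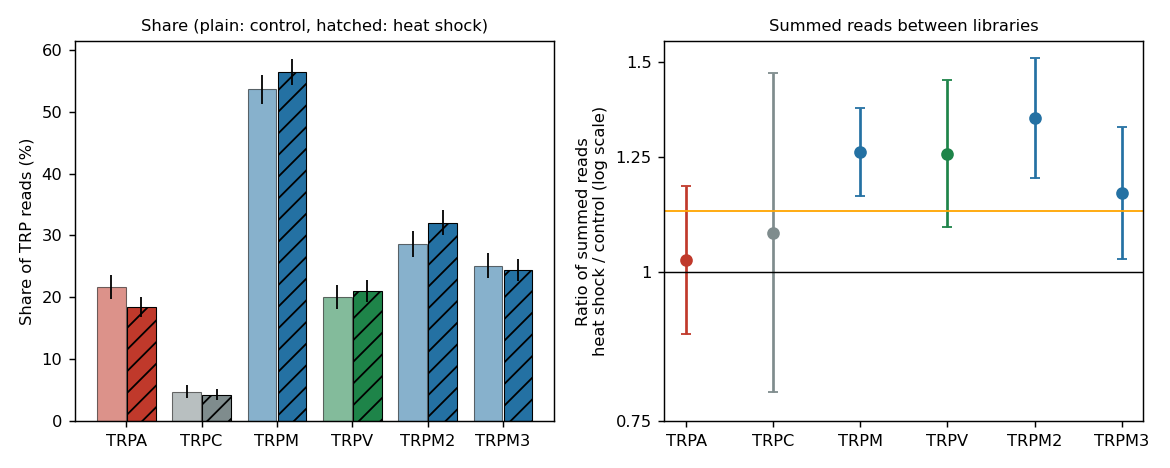
Left, share of all TRP reads held by each subfamily in percent, with exact 95% binomial intervals; plain bars are the control-labelled library and hatched bars the heat-labelled library. Right, ratio of summed reads on a log scale with exact 95% intervals and the median unigene at 1.12 in orange. TRPM2 and TRPM3 are parts of TRPM. Of the subfamilies shown, TRPM holds the most reads. With this scaling, to library totals, TRPA is the subfamily closest to 1.

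Among the members, which leave out polycystin-2 and mucolipin, the makeup of the TRP transcripts was similar in both libraries. TRPM held 53.7% of the TRP reads under the control label (51.3 to 56.0%) and 56.4% under the heat shock label (54.3 to 58.5%). TRPA held 21.6% (19.7 to 23.6%) and 18.4% (16.8 to 20.1%), TRPV 20.01% and 20.96%, and TRPC 4.72% and 4.24%. Per kilobase of summed length the order changed. TRPA had the highest density, at 17.6 and 18.03 RPKM, followed by TRPV at 8.31 and 10.4, TRPM at 7.23 and 9.11 and TRPC at 2.83 and 3.05.

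The deposited coverage, the percent of each unigene's length touched by reads, showed where the reads behind these ratios lay. Unigenes with a single read had 49 bases covered, in 1286 of 1286 cases, which gives the length that 1 read covers and so the coverage that evenly placed reads would reach. Most members came near that value, and their median shortfall, 8.13 and 6.22 percentage points, was no larger than the 9.91 and 10.3 of all unigenes compared. The TRPV6 unigene Unigene0032919 stood out: its reads covered 45.8% and 56.5% of the length where even placement gives 92.2% and 94.96%. Only 0.657% and 1.64% of all unigenes compared had a larger shortfall. The called TRPV6 unigene Unigene0004696 was covered over 24.1% and 47.1%, where even placement gives 51.3% and 89.2%. A larger shortfall was seen in 7.48% and 1.12% of all unigenes compared. The TRPM2 unigene Unigene0016659 was covered over 64.9% and 81.5%, against 97.1% and 99.94%. The called TRPC6 unigenes were evenly covered; Unigene0009545 went from 24.9% to 86.7% of its length. Which bases were covered is not given in the files, so whether the 2 libraries covered the same stretches was not tested.

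**Figure D4:**
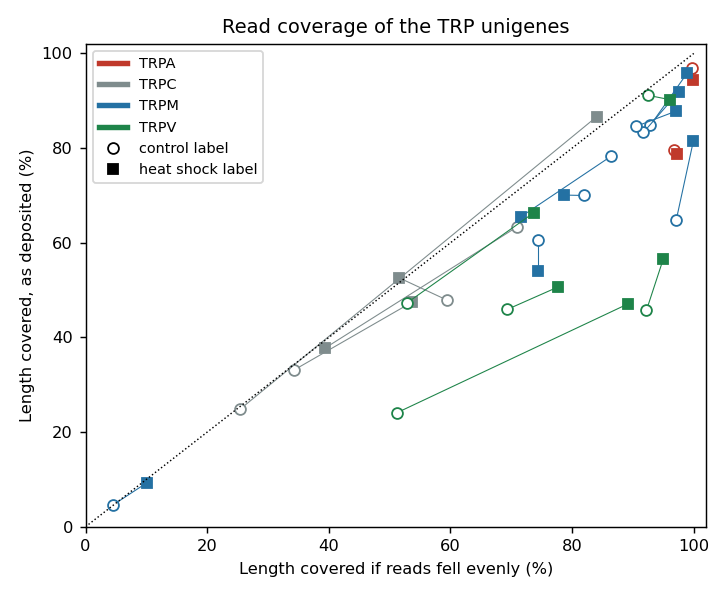
Percent of the length covered by reads, as deposited, against the percent that the same number of reads of 49 bases would cover if evenly placed, for the 19 TRP unigenes compared. Open circles are the control-labelled library, filled squares the heat-labelled library, joined for each unigene; the dotted line marks equality. The TRPV6 unigene Unigene0032919 (45.8% and 56.5%) lies far below the line, and the TRPC unigenes lie near it.

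The deposited annotation gave gene ontology terms to 10 members and a pathway to 4. Response to temperature was among the terms of 2 members: the TRPV6 unigene Unigene0008042, described above, and the TRPM3-like unigene Unigene0029689, with 4 and 5 reads. Sensation of mechanical stimuli was assigned to the TRPV6 unigenes Unigene0008042 and Unigene0032919. A place in the primary cilium was assigned to the TRPA1-like Unigene0009361 and the TRPV6 unigene Unigene0008041. Of the members annotated to temperature, Unigene0008042 was compared and not called, while Unigene0029689 had too few reads to be compared.

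Genes that work with TRP channels were examined in 13 lists, given by words in the descriptions. Across all of them 160 unigenes had at least 20 reads. Of these, 3 were called higher and 0 lower in the heat-labelled library, or 1.88% beside 7.22% of all unigenes, and the median log2 ratio was 0.16, beside 0.17 for all unigenes. With TMM factors 2 were called lower. The called share of all unigenes depended on depth, with 10.9% at 20 to 99 reads and 4.84% at 100 or more. The called share of the lists was not split by reads, so part of its distance from 7.22% may lie in depth. No p-value stands behind these counts, since there was 1 library per group.

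Among the distant TRP relatives, polycystin-2 was abundant and mucolipin-3 was not. Polycystin-2, a cilium-borne TRP channel (Unigene0008542, 2687 bases), had 1636 and 2103 reads, or 155 and 188 RPKM, several times the level of any TRP member. Its ratio was 1.21 (1.13 to 1.29), close to that of the summed cilia markers. Mucolipin-3, a TRP channel of endosomes and lysosomes in mammals (Unigene0013638), had 183 and 224 reads, or 8.54 and 9.83 RPKM, giving a ratio of 1.15 (0.943 to 1.41). None of the 4 polycystin-2 and mucolipin unigenes compared was called, nor any of 16 of the polycystin-1 family.

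The lists around phospholipase C signalling, which opens TRPC channels, held 2 calls, both higher in the heat-labelled library. Over all unigenes compared 3.97% were called higher, and of those with 20 to 99 reads 10.9% were called either way. None of 10 phospholipase C unigenes was called. Their summed ratio was 1.23 (1.13 to 1.35) and their median log2 ratio 0.31, beside 0.17 for all unigenes; the gamma-1 form (Unigene0004251) had 162 and 216 reads and the delta-1 form (Unigene0014964) 227 and 327, a ratio of 1.355 (1.14 to 1.61). None of 9 G protein alpha subunits was called (median 0.02; -0.15 with TMM). Among 7 protein kinase C unigenes, whose enzymes diacylglycerol activates, 1 was called higher, Calcium-dependent protein kinase C (Unigene0006071), with 38 and 86 reads, giving a ratio of 2.13 (1.44 to 3.21). Among 10 enzymes of PIP2 turnover 1 was called higher, a 72 kDa inositol polyphosphate 5-phosphatase unigene (Unigene0012524) with 9 and 25 reads. Phosphatidylinositol-4-phosphate 5-kinase type-1 alpha, which makes PIP2 (Unigene0006105), was 1.51-fold higher in the control-labelled library (1.26 to 1.82). Opsins, the light receptors upstream of TRP channels in fly eyes, had 0 calls among 3 unigenes, all described as Gq-coupled rhodopsin.

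Calcium handling unigenes differed in both directions, mostly below the 2-fold rule. Among 14 calcium pumps and exchangers 3 had intervals above 1 and 3 below; among 44 calmodulins and calmodulin kinases the counts were 10 and 4. The calcium pump of the sarcoplasmic and endoplasmic reticulum (Unigene0002912) had 2468 reads in the control-labelled library and 1710 in the heat-labelled library, 1.53-fold higher in the former (1.44 to 1.63). Stromal interaction molecule 1, the sensor of calcium stores (Unigene0006492), was 1.31-fold higher there (1.16 to 1.48). The plasma membrane pump (Unigene0001108) was level, at 1194 and 1272 reads. An IP3 receptor type 2 unigene, a calcium release channel (Unigene0033040), had the opposite direction, with 279 and 486 reads and a ratio of 1.64 (1.41 to 1.91). None of 17 IP3 and ryanodine receptors, 14 calcium pumps and exchangers or 44 calmodulins and calmodulin kinases was called. Of 20 voltage-gated calcium channel unigenes 1 was called higher, a T-type alpha-1H unigene (Unigene0004025) with 24 and 63 reads, giving a ratio of 2.47 (1.52 to 4.13). Piezo and two-pore potassium channels, other sensors of touch and temperature, had 0 calls among 4.

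**Figure D5:**
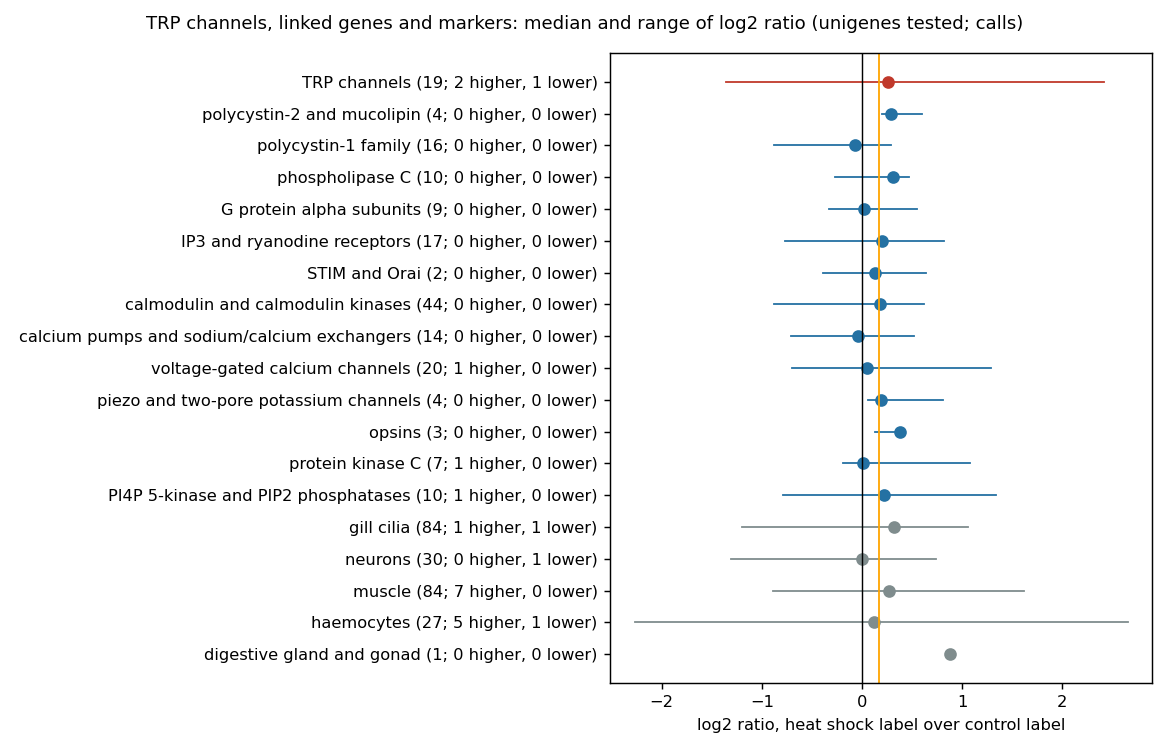
Median (point) and range (line) of the log2 ratio, heat shock label over control label, for TRP channels in red, linked lists in blue and cell markers in grey; brackets give the unigenes compared and the calls. The orange line marks the median of all unigenes, 0.17. TRP channels and haemocyte markers span wider ranges than the linked calcium and lipid signalling lists. The ends of the TRP range are members with fewer than 100 reads. For the 11 members with at least 100 reads it runs from -0.24 to 0.97.

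Cell types that could carry TRP channels in a gill dissection were followed by their markers. Of 30 neuronal marker unigenes 1 was called lower and 0 higher, with a median log2 ratio of -0.003 and a summed share of 0.144% and 0.152% of the reads. Neurexin-4 (Unigene0013797, 1903 and 2081 reads) and Neurexin-1-alpha unigenes led them, of 5641 and 6353 reads in the list. Whether these transcripts are limited to neurons in gill was not tested, so the share describes the list. Complexin had 4 and 8 reads, and no unigene was described as synapsin or choline acetyltransferase. Of 84 muscle unigenes 7 were called higher and 0 lower, with 0.386% and 0.436% of the reads; the called share was 8.33%, near the 7.22% of all unigenes. Of 27 haemocyte unigenes 5 were called higher and 1 lower, with 0.122% and 0.128% of the reads. That called share, 22.2%, was above the 7.22%, in a list of few unigenes. The called unigenes farthest from 1 were all described as C1q proteins. Whether these mark haemocytes in gill was not tested, so the share describes the list and not the cells. Digestive gland and gonad markers were near 0 apart from a vitellogenin unigene (Unigene0004787), with 85 and 167 reads. The part of these cell types in the TRP ratios was not tested.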

How the data were processed

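Polyadenylated gill RNA was sequenced in 1 library per group. The submitters' processing notes name CASAVA 1.4 and cutadapt 1.8.1; aligner and assembly were not given in the sources used here. The deposited counts, per the file headers, are uniquely mapped reads per unigene, not normalized, and sum to the totals in the headers. The authors' deposited RPKM followed from counts, lengths and totals to a relative difference of 5.01e-15. Coverage was deposited as a percent of each unigene's length. A unigene listed in 1 file was set to 0 in the other.

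Ratios were scaled to library totals, with exact conditional (Clopper-Pearson) 95% intervals; differences of ratios used the exact conditional odds ratio, also widened by Bonferroni. PCR copies are not independent molecules, so intervals and floors cover counting error only. A count of 0 was taken to allow 3 reads, or 0.764 CPM under the control label and 0.719 under the heat shock label. Log2 ratios used a prior count of 0.5. No p-value was computed and no count model was fitted, since 1 library per group gives no spread; edgeR 4.0.16 supplied TMM factors only. The interval and calling rule were tested on simulated counts that held counting error only. That test cannot speak to spread between animals or libraries. Reads shared by near-identical copies are absent from unique counts, so ratios of paralogs are uncertain.

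Members and lists were chosen with earlier results of these data known. TRP unigenes are named where called or among the 4 most abundant per length of their subfamily, and list genes where called (at most 4) or among the 2 with the most reads; others are marked or illustrate a limit. With 2 libraries no likeness of pattern between genes was measured. No sequences are printed, since none was at hand for these unigenes. Alternatives were TMM and median-of-ratios scaling, other minimums, ratios, intervals and priors, and leaving out leading members. The leading member of a subfamily was the unigene with the most reads over both libraries, not the highest RPKM.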

Additional observations from a re-analysis of the deposited data

How the results depend on the processing

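No paired analysis was possible because each group holds 1 library; for the same reason no replicate could be left out. TMM factors lowered every log2 ratio by 0.16 and median-of-ratios scaling by 0.17, and brought the median of all unigenes to 0.01 and 0.004. All 38 rescaled ratios of single TRP members stayed inside their 95% intervals. Every one of these intervals reaches further than the common shift, so that outcome was fixed and is no check. Both scalings left 2 TRP unigenes called higher and 1 lower. The few calls depended on the rule. Called higher were 4 without a minimum, 0 with at least 100 reads, 4 at a ratio of 1.5, 1 at a ratio of 4 and 1 with the stricter interval. Called lower were 0 with at least 100 reads, 2 at 1.5, 0 at 4 and 0 with the stricter interval. Summing neighbouring IDs with the same description left 0 and 0, since each called unigene was pooled with a neighbour of another ratio. The TRPM sum had a ratio of 1.13 with TMM and 1.12 with median of ratios. Without Unigene0013532, which held its most reads and had a ratio below 1, the TRPM sum was 1.41. TRPM without Unigene0016659, its highest in RPKM, was not tested. The TRPC sum without Unigene0009544, which held its most reads, was 1.65. The TRPM ratio over that of TRPA was 1.497 without leading members, 1.32 for TRPM2 alone and 1.14 for TRPM3 alone, the last with a widened interval that included 1. As shares of TRP reads per kilobase, in the control-labelled library TRPA held 24.3%, TRPC 9.55% and TRPM 46.6%. Without leading members TRPA held 14.4% and TRPM 58.5%, and not divided by length TRPA held 21.6%, TRPC 4.72% and TRPM 53.7%. In the heat-labelled library the shares per kilobase were 19.3%, 8.82% and 49.8%. Without leading members TRPA held 9.79% and TRPM 59.7%, and not divided by length TRPC held 4.24% and TRPM 56.4%. In the linked lists, called higher were 1 with at least 100 reads, 9 at a ratio of 1.5 and 0 at 4, against 3. Called lower were 2 with TMM, 2 with median of ratios and 7 at 1.5, against 0. Of 65 medians of single lists under other settings, 17 left the list's interquartile range. Where no construction is named, the cause was not tested. Limits are the 1 library per group, the heat shock genes that run against the labels, and depth, with 15 of 34 members under 20 reads.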
